A study of Mus musculus with 6 samples.

Results

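The gene family described here is a set of 10 lymphocyte homing receptors: the chemokine receptors Cxcr3, Cxcr4, Cxcr5, Ccr2, Ccr6, Ccr7 and Ccr9, the sphingosine-1-phosphate (S1P) receptors S1pr1 and S1pr2, and the oxysterol receptor Gpr183. They were chosen by gene symbol in the array's annotation, and all 10 of 10 were found, each with 1 probe set, among 19938 genes measured by a single-gene probe set. Expression was measured on 1-colour Affymetrix arrays in 6 samples of 129SvEv mouse pre-B cells transformed with BCR-ABL1, the fusion kinase that drives Philadelphia chromosome-positive acute lymphoblastic leukemia (Ph+ ALL). In 3 samples the cells were Etv5 knockout (KO), lacking an ETS-family transcription factor, and in 3 they were Etv5 wild type (WT). Both groups carried BCR-ABL1, so no untransformed pre-B cells enter the comparison. Age, sex, the exons deleted, the number of mice behind each sample and whether a line was clonal are not stated in the labels. The p-values therefore reflect only how far these samples lie apart, and that spread may be technical.

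Homing receptors are G protein-coupled receptors that guide lymphocytes along gradients of chemokines or lipids. Through Gi proteins they activate PI3-kinase gamma and the Rac exchange factors DOCK2 and P-Rex1, and RGS proteins, receptor kinases and arrestins end the signal. In the bone marrow, CXCR4 and its ligand CXCL12 hold B cell precursors in their niche. S1P receptors act in the exit of B cells to the blood, whereas CXCR5, CCR7 and GPR183 direct mature B cells within lymph nodes and spleen.

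Array medians lay between 7.80 and 7.84 log2 units in the KO and between 7.79 and 7.84 in the WT. Pairs of arrays correlated at r = 0.995 to 0.996 within the KO, 0.994 to 0.997 within the WT and 0.991 to 0.994 across genotypes, over probe sets, which are not independent replicates. Of 10 B cell precursor markers, 9 were measured, and their means over the arrays lay between 9.31 and 14.27, with Igll1 and Cd79a among the bright ones. The Etv5 probe set 10438626 read 8.97, 8.91 and 8.92 in the KO and 9.30, 9.52 and 9.27 in the WT (log2 difference -0.43, limma adjusted p = 0.0467). The brighter Etv5 probe set, 10363901, went the other way, with every KO value above every WT value. It read 11.674, 11.882 and 11.731 in the KO and 11.484, 11.518 and 11.455 in the WT (log2 difference 0.28, limma adjusted p = 0.13). The genomic position of each probe set was not checked, so 10363901 may not read the Etv5 locus. Whether either lies in the deleted part is not known, so the labels were taken as given.

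Among the 10 receptors, Cxcr5 fell, S1pr1 rose, and the other 8 did not pass the test. Cxcr5 was 6.91-fold lower and S1pr1 1.56-fold higher in Etv5 KO cells. The test was limma, a linear model per probe set with a shared estimate of the spread, with Benjamini-Hochberg adjustment over all 35556 probe sets, and a gene was called at an adjusted p under 0.05. Of all 19938 genes, 4.43% were called by this rule: 2.42% were higher and 2.01% lower in the KO. The median change of the 10 receptors was -0.036 log2 units, beside -0.0039 for all genes. The values on each array are plotted by receptor, with an equal span of log2 units in every panel.

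**Figure D1:**
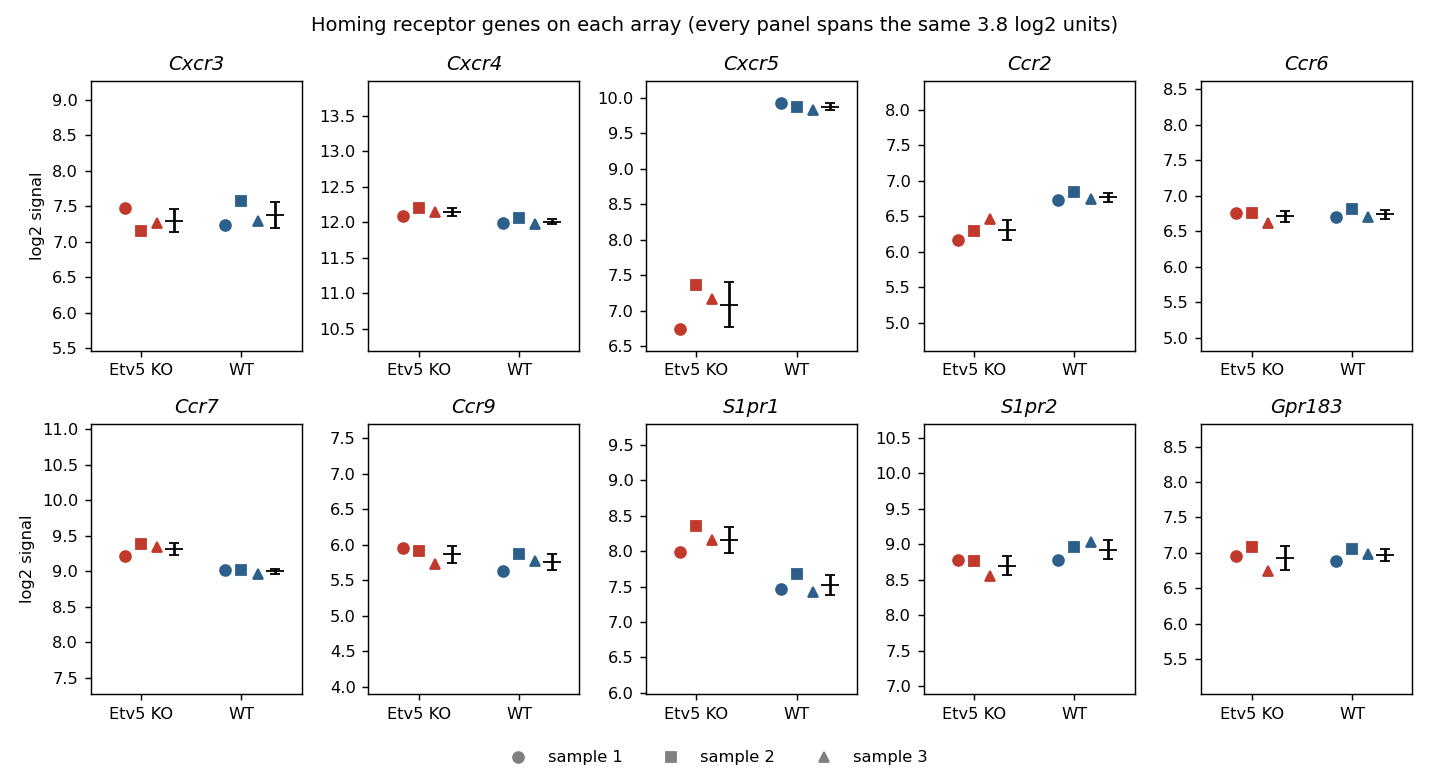
Log2 signal of the 10 homing receptor genes (y axis, log2 units) in Etv5 KO samples (red, left) and WT samples (blue, right); marker shapes give the sample number, and the black bar is the mean with its SD (n = 3). Cxcr5 lies at 6.74 to 7.35 in the KO and at 9.82 to 9.93 in the WT, while Cxcr4, Ccr6 and Gpr183 lie close together in both genotypes.

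Cxcr5, the receptor for CXCL13 that brings B cells into follicles, read 6.74, 7.35 and 7.16 log2 units in the 3 KO samples and 9.93, 9.87 and 9.82 in the 3 WT samples. All KO values lay below all WT values, with a gap of 2.47 log2 units between the highest KO and the lowest WT array. The KO samples were spread over 0.61 log2 units, with KO sample 1 lowest, and the WT samples over 0.10. The means were 7.09 ± 0.31 in the KO and 9.87 ± 0.051 in the WT (SD, n = 3 each). The log2 change was -2.79 ± 0.15 (SE, 95% interval -3.16 to -2.42, limma adjusted p = 0.000511). Only 5 of the 19938 genes, Cxcr5 included, had a log2 change at least as far below 0. The KO signal lay below the array median and was not shown to be above background, so the size of the fall is uncertain. In RNA from bulk cells, fewer cells with the receptor and less RNA per cell cannot be told apart.

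S1pr1, the S1P receptor that draws lymphocytes out of tissues, read 7.98, 8.35 and 8.15 in the KO samples and 7.46, 7.68 and 7.43 in the WT samples. The lowest KO array lay 0.31 log2 units above the highest WT array. The WT values lay below the array medians and were not shown to be above background, so the size of the rise is uncertain. The means were 8.16 ± 0.18 in the KO and 7.52 ± 0.14 in the WT (SD, n = 3 each), a log2 change of 0.64 ± 0.11 (SE, 95% interval 0.36 to 0.92, limma adjusted p = 0.0427). The direction was the same in each of the 15 alternative settings, but the call depended on the samples included. It was lost in limma fits without KO sample 2 (adjusted p = 0.105), KO sample 3 (0.156), WT sample 1 (0.172), WT sample 2 (0.0641) or WT sample 3 (0.131), and held without KO sample 1 (0.0429).

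**Figure D2:**
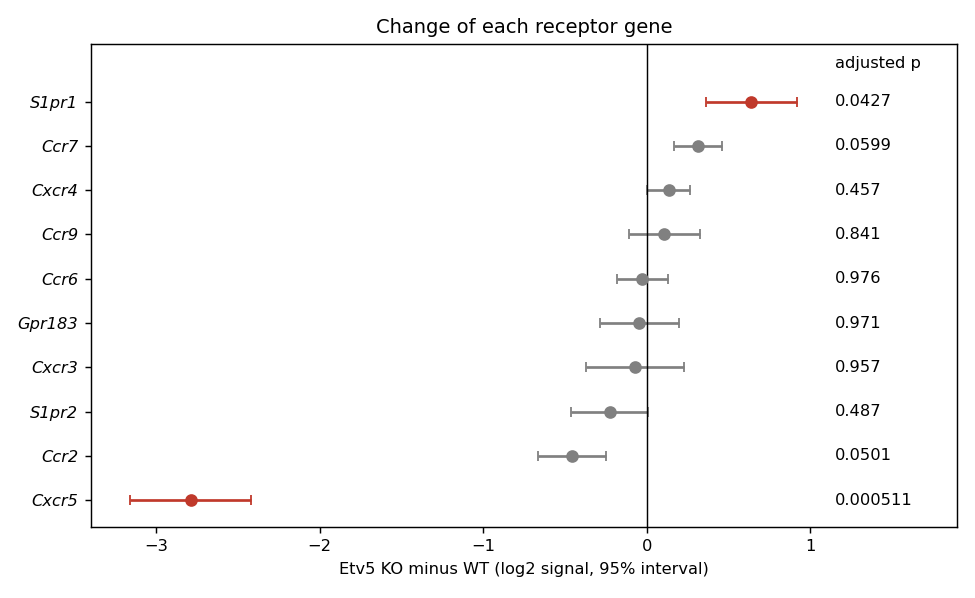
Difference between Etv5 KO and WT of each receptor gene (x axis, log2 units; points are estimates and bars 95% intervals from limma), ordered from the highest to the lowest, with the adjusted p at the right. Red points passed at an adjusted p under 0.05: S1pr1 at 0.64 and Cxcr5 at -2.79.

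The other S1P receptor of the family, S1pr2, couples to the G proteins of the Gna12 and Gna13 genes and confines B cells to germinal centres. It read 8.78, 8.77 and 8.55 in the KO samples and 8.78, 8.96 and 9.04 in the WT samples. The groups overlapped at KO sample 1 and WT sample 1, and the log2 difference was -0.23 (95% interval -0.46 to 0.010, limma adjusted p = 0.487). S1pr1 and S1pr2 thus had estimates of opposite sign, of which that of S1pr1 alone passed. Whether the 2 differences differ from each other was not tested.

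Ccr2 and Ccr7 came close to the threshold. Ccr2, a receptor for CCL2 best known from monocytes, read 6.17, 6.29 and 6.46 in the KO samples and 6.72, 6.84 and 6.73 in the WT samples. Every KO value lay below every WT value, by 0.27 log2 units at the nearest, and the log2 difference was -0.46 ± 0.086 (SE, limma adjusted p = 0.0501). Ccr7, the receptor for CCL19 and CCL21 that guides cells to T zones, read 9.22, 9.38 and 9.34 in the KO samples and 9.02, 9.02 and 8.96 in the WT samples. Here every KO value lay above every WT value, by 0.20 log2 units at the nearest, and the log2 difference was 0.31 ± 0.061 (SE, limma adjusted p = 0.0599). Ccr2 passed in 4 of 14 alternative settings (adjusted p 0.0115 to 0.185) and Ccr7 in 6 of 15 (0.0185 to 0.229), always with the same sign. The signal of Ccr2 lay below the array medians in both genotypes. The plot of adjusted p by setting shows all 4 of these receptors.

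**Figure D3:**
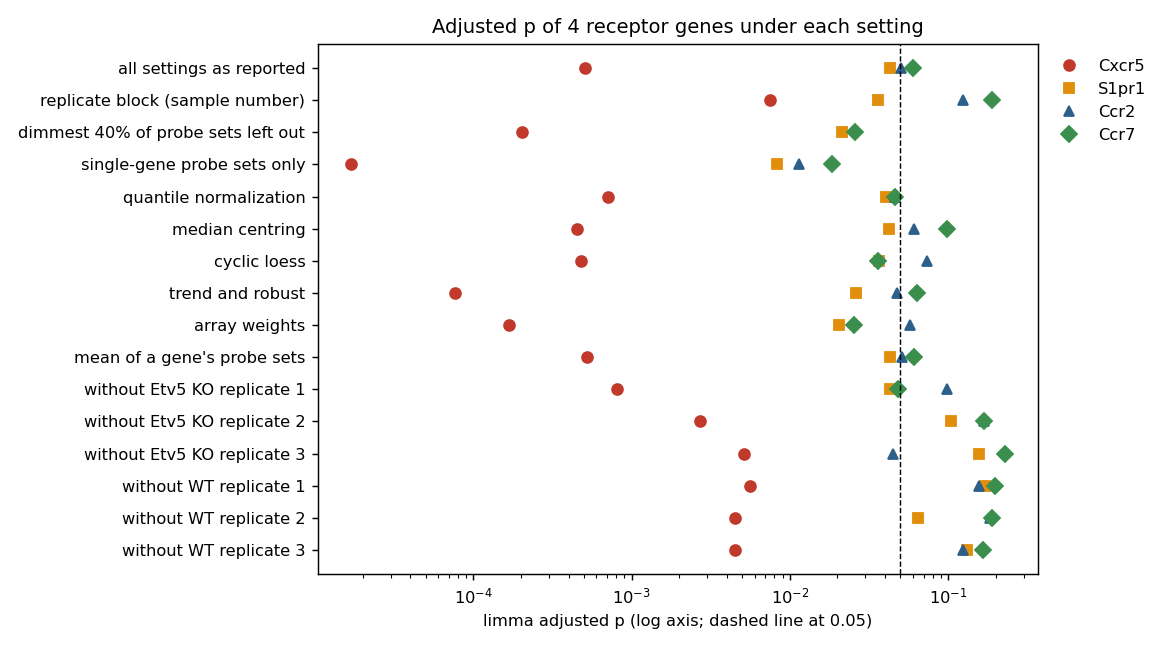
Limma adjusted p (x axis, log scale, dashed line at 0.05) of Cxcr5, S1pr1, Ccr2 and Ccr7 under each setting (rows); lower values lie to the left. Cxcr5 lies at 0.00749 or lower in every setting shown, S1pr1 lies above the line in 5 of the 6 fits that leave out 1 sample, and Ccr2 and Ccr7 fall on both sides of it.

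Cxcr4, the CXCL12 receptor of the marrow niche, was bright on all arrays and differed little. It read 12.09, 12.20 and 12.15 in the KO samples and 12.00, 12.06 and 11.98 in the WT samples. The groups did not overlap, but the gap was only 0.029 log2 units. The difference was 0.13 log2 units (95% interval -0.00035 to 0.27, limma adjusted p = 0.457), so the interval ends at a 1.20-fold higher level on one side and next to no difference on the other.

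The remaining 4 receptors had overlapping groups. Cxcr3, the receptor for CXCL9, CXCL10 and CXCL11 on activated T cells, read 7.48, 7.15 and 7.27 in the KO samples and 7.24, 7.58 and 7.29 in the WT samples, a log2 difference of -0.072 (95% interval -0.37 to 0.23). Ccr6, the CCL20 receptor, read 6.75, 6.75 and 6.62 in the KO samples and 6.70, 6.81 and 6.70 in the WT samples, a difference of -0.027 (-0.18 to 0.13). In both, the highest value came from WT sample 2 and the lowest from a KO sample, and the estimate was smaller than the SD within either genotype. Ccr9, the CCL25 receptor of thymus- and gut-homing cells, read 5.96, 5.91 and 5.73 in the KO samples and 5.64, 5.87 and 5.77 in the WT samples, a difference of 0.11 (-0.11 to 0.33). Gpr183, the receptor for oxysterols made by Ch25h and Cyp7b1, read 6.96, 7.08 and 6.74 in the KO samples and 6.88, 7.05 and 6.99 in the WT samples, a difference of -0.045 (-0.29 to 0.20). These estimates, too, were smaller than either SD. The limma adjusted p-values of the 4 lay between 0.841 and 0.976. All 4 gave signals below the array medians, where no detection call was used and RMA, the background correction and normalization behind these values, compresses differences, so these values do not show that the genes were expressed or unchanged. In 5 of the 10 receptors the groups did not overlap, as in 20.5% of all 19938 genes. All KO values lay above all WT values in 3 receptors (10.2% of all genes) and below them in 2 (10.2% of all genes).

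Sequence upstream of the annotated start was read for the receptors that have an entry in the RefSeq promoter table of build GRCm38.p6. It held 7 of the 10; Cxcr5, Ccr7 and S1pr1 have no entry. The windows of Ccr2 and Cxcr4 are shown because these are the receptors with an entry whose groups did not overlap. Each runs 5′ to 3′ along the gene's strand over the 250 bases before the start, with capitals for GGAA, the core that ETS factors bind, or its reverse complement TTCC. The Ccr2 window is chr9:124101933-124102182, plus strand, and the Cxcr4 window is chr1:128592300-128592549, minus strand.
Ccr2: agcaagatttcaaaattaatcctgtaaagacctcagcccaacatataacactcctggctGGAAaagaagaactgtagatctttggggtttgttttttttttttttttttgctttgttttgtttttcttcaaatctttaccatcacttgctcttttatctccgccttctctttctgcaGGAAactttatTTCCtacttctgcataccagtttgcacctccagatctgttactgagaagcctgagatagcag
Cxcr4: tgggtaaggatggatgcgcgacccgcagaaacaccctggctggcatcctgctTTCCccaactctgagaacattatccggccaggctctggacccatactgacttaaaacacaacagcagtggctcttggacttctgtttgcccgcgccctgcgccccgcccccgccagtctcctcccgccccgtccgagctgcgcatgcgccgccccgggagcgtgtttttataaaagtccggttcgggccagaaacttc
GGAA was found 3 times before Ccr2 and once before Cxcr4, on either strand, and stands in 93.4% of the 32851 windows of this length in the table. The longer form CCGGAA, which contains GGAA, was searched on both strands too. It stands in 12.0% of all windows and, among the 8 windows of these receptors, in that of S1pr2 alone. A match describes these letters and is not a binding site.

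Genes around the receptors were taken from 7 lists of relatives, ligands, lipid enzymes, effectors, signal terminators and regulators. Of 101 listed genes 96 were measured, of which 5 rose, 7 fell and 84 did not pass. That is 12.5%, beside 4.43% of all genes. The lists were chosen with earlier results of these data known, and the 2 shares were not tested against each other. With the sample number as a block in the model, 2 of the 96 passed, and 544 of all probe sets in place of 1095. The median change over the 96 was 0.021 log2 units. The plot of related genes shows where the 12 lie.

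**Figure D4:**
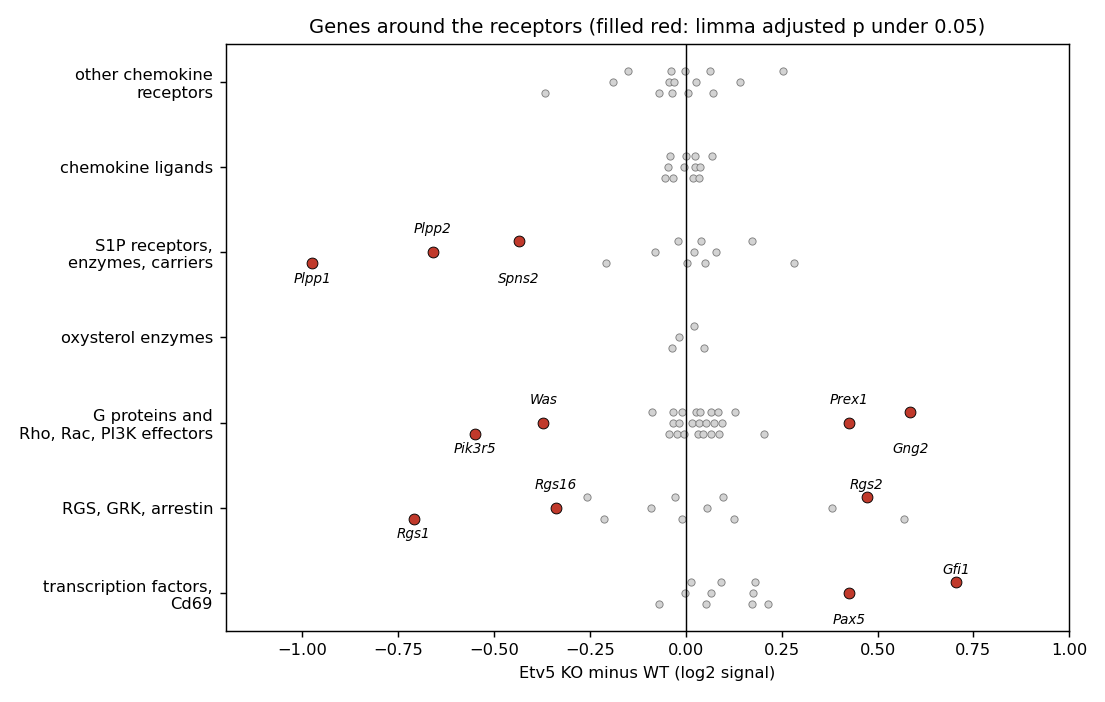
Difference between Etv5 KO and WT (x axis, log2 units) of each measured gene in the 7 lists (rows; the vertical scatter within a row has no meaning). Red points with names passed limma at an adjusted p under 0.05; none lies in the rows of other chemokine receptors, chemokine ligands and oxysterol enzymes.

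Among the measured genes of the chemokine system outside the family and the oxysterol enzymes, none was called. These lists are short: of all 19938 genes, 4.43% were called and 13.4% had an unadjusted p under 0.05, so counts of 0 in them say little about the lists. None of 15 other chemokine receptors passed limma, and 1 had an unadjusted p under 0.05, Cxcr6, with a log2 difference of 0.25 (adjusted p = 0.299). Ackr3, the scavenging receptor for CXCL12, differed by 0.14 and Ccr4 by -0.37 (adjusted p = 0.470 and 0.474). None of 12 chemokine ligands passed limma, and none had an unadjusted p under 0.05. Cxcl13, the ligand of the fallen Cxcr5, averaged 6.38 in both genotypes (log2 difference 0.0011, adjusted p = 0.999), and Cxcl12, the ligand of Cxcr4, differed by -0.046 (adjusted p = 0.925). None of 4 enzymes that make or break the ligand of Gpr183 passed limma, at either an adjusted or an unadjusted p under 0.05, and their differences lay between -0.037 and 0.049. Cxcr6, Ackr3, Ccr4, Cxcl13, Cxcl12 and the 4 enzymes gave signals below the array medians. Their values therefore do not show that these genes were expressed or unchanged.

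Genes that handle S1P and related lipid phosphates changed in part: of 13 measured, 3 fell, none rose and 10 did not pass. By the same rule 2.01% of all genes fell and 2.42% rose, and the list was not tested against these shares. Plpp1, a membrane phosphatase of lipid phosphates including S1P, read 6.77, 7.14 and 7.04 in the KO samples and 8.01, 7.84 and 8.02 in the WT samples, and fell by 0.97 on the log2 scale (limma adjusted p = 0.0070). The KO values of Plpp1 lay below the array medians, so the size of this fall is uncertain. Plpp2, a relative of Plpp1, read 10.50, 10.64 and 10.47 in the KO samples and 11.07, 11.19 and 11.33 in the WT samples, and fell by 0.66 (adjusted p = 0.0126). Spns2, an exporter of S1P known from endothelium, read 8.17, 7.95 and 8.03 in the KO samples and 8.47, 8.57 and 8.42 in the WT samples, and fell by 0.44 (adjusted p = 0.0414). In all 3 the groups did not overlap, as in 20.5% of all genes. The calls rest on the same values, so this adds little to them. The S1P lyase gene Sgpl1 differed by 0.28 (adjusted p = 0.0837). Leaving out 1 sample at a time, Plpp1 kept its call in all 6 limma fits, Plpp2 lost it in 3 (without KO sample 1, KO sample 3 or WT sample 2) and Spns2 in 5, all but that without KO sample 1. S1pr4, the S1P receptor of blood cells, averaged 10.66 in the KO and 10.65 in the WT and did not pass (log2 difference 0.0027, adjusted p = 0.999).

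Of 27 measured effectors between the receptors and the cytoskeleton, 2 rose, 2 fell and 23 did not pass, where 4.43% of all genes were called. Gng2, a G protein gamma subunit, read 10.03, 10.16 and 10.01 in the KO samples and 9.49, 9.34 and 9.61 in the WT samples, a rise of 0.58 (limma adjusted p = 0.0194). Prex1, a Rac exchange factor activated by beta-gamma subunits, read 9.23, 9.18 and 9.13 in the KO samples and 8.67, 8.78 and 8.81 in the WT samples, a rise of 0.43 (adjusted p = 0.0178). Both genes act at the beta-gamma step. Pik3r5, a regulatory subunit of PI3-kinase gamma that responds to the same subunits, read 9.16, 9.41 and 9.32 in the KO samples and 9.86, 9.81 and 9.88 in the WT samples, and fell by 0.55 (adjusted p = 0.0159). Was, the Wiskott-Aldrich protein gene that drives actin assembly, read 11.40, 11.59 and 11.50 in the KO samples and 11.85, 11.86 and 11.90 in the WT samples, and fell by 0.37 (adjusted p = 0.0349). The groups of these 4 genes did not overlap, as in 20.5% of all genes. Gnai2, the main Gi subunit of lymphocytes, differed by 0.086 and Dock2 by 0.053 (adjusted p = 0.708 and 0.861). Each of the 4 lost its call in 4 or 5 of the 6 limma fits that left out 1 sample. All 4 lost it without KO sample 3, WT sample 1 or WT sample 2. Gng2, Prex1 and Was also lost it without KO sample 1, Gng2 and Prex1 without KO sample 2, and Pik3r5 and Was without WT sample 3.

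Among 13 measured genes that end receptor signalling, 1 rose, 2 fell and 10 did not pass, where 4.43% of all genes were called. Rgs1, which damps chemokine receptor signals in B cells by speeding GTP hydrolysis, read 7.03, 7.34 and 7.24 in the KO samples and 8.03, 7.72 and 7.98 in the WT samples, and fell by 0.71 (limma adjusted p = 0.0306). The KO values of Rgs1 lay below the array medians, so the size of this fall is uncertain. Rgs16, of the same family, read 8.71, 8.65 and 8.68 in the KO samples and 9.01, 9.07 and 8.98 in the WT samples, and fell by 0.34 (adjusted p = 0.0229). Rgs2, which acts mainly on Gq, read 10.25, 10.35 and 10.35 in the KO samples and 9.82, 9.85 and 9.86 in the WT samples, a rise of 0.47 (adjusted p = 0.0070). The RGS family therefore held called genes of both directions, each with groups that did not overlap, as in 20.5% of all genes. The arrestin genes Arrb1 and Arrb2 differed by 0.096 and -0.091, and the receptor kinase genes Grk5 and Grk6 by -0.26 and 0.055, with limma adjusted p-values of 0.352 to 0.881. Leaving out 1 sample, Rgs2 kept its call in all 6 fits, Rgs1 only in that without WT sample 2 and Rgs16 in none. With the sample number as a block, all 3 lost it (limma adjusted p = 0.0521 for Rgs2, 0.135 for Rgs1 and 0.133 for Rgs16).

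Of 12 measured regulators of homing genes, 2 rose, none fell and 10 did not pass. By the same rule 2.42% of all genes rose and 2.01% fell, and the list was not tested against these shares. Gfi1, a transcriptional repressor of blood progenitors and lymphocytes, read 8.64, 8.74 and 8.80 in the KO samples and 7.96, 8.13 and 7.98 in the WT samples, a rise of 0.71 (limma adjusted p = 0.0053). Pax5, the B lineage commitment factor, read 12.54, 12.65 and 12.58 in the KO samples and 12.13, 12.15 and 12.22 in the WT samples (adjusted p = 0.0127). Both were higher in 3 of 3 KO samples than in any WT sample, as were 10.2% of all genes. In the whole list, all KO values lay above all WT values in 6 of the 12 genes and below them in 0. Of all genes, 10.2% lay above and 10.2% below. Pou2af1 and Nfkb2, which did not pass, were among the 6 and differed by 0.17 and 0.18 (limma adjusted p = 0.169 and 0.533). Klf2 and Foxo1, which drive S1pr1 in T cells, differed by 0.17 and 0.21 (adjusted p = 0.261 and 0.166), and Cd69, whose protein takes S1PR1 off the cell surface, by 0.091 (adjusted p = 0.760). Gfi1 kept its call in each of the 6 fits without 1 sample, and Pax5 lost it without KO sample 3, WT sample 1 or WT sample 2.

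Some of these receptors mark other blood cells, so markers of such cells were read beside them. The summed signal of 11 myeloid markers spanned 10.55 to 10.71 log2 units in the KO and 10.56 to 10.67 in the WT, and 1 of the 11 passed limma, Itgam, which rose by 0.60 (adjusted p = 0.0235); 2 of the 11 had an unadjusted p under 0.05. That of 10 T and NK cell markers spanned 10.24 to 10.44 in the KO and 10.28 to 10.37 in the WT. For 11 stromal and endothelial markers it spanned 10.76 to 10.96 in the KO and 10.80 to 11.01 in the WT. No member of the last 2 lists passed limma, beside 4.43% of all genes. An unadjusted p under 0.05 was seen in 2 T and NK cell markers and 0 stromal ones, beside 13.4% of all genes. In each of these 3 lists the ranges of the summed signal overlapped between genotypes. A sum is weighted to the brightest markers and can hide opposite changes. In 4 of the 11 myeloid markers the groups did not overlap, 3 with the KO above and 1 with it below, beside 20.5% of all genes. The summed signal of the 9 B cell precursor markers was 16.240 to 16.296 in the KO and 16.209 to 16.236 in the WT, so that all KO arrays lay slightly above all WT arrays. Among them Dntt fell by 0.37 (adjusted p = 0.0132) and the other 8 did not pass. All KO values lay above all WT values in 4 of the 9 (Cd79a, Cd79b, Cd24a and Il7r) and below them in 2 (Dntt and Igll1). Of all genes, 10.2% lay above and 10.2% below in this way. Apart from Dntt, the gaps between the groups were small, from 0.013 log2 units (Cd79a) to 0.054 (Cd79b). The array scale has no zero, so no marker could be called absent, and the part of these markers in the receptor values was not tested.

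The genes whose values over the 6 arrays lay closest to those of the called receptors were found after subtracting each probe set's own mean. Nearest to Cxcr5 were Stag3, Epcam and Glp1r, with root-mean-square differences of 0.14, 0.16 and 0.17 log2 units. Stag3, a meiotic cohesin subunit gene, read 8.58, 8.93 and 8.78 in the KO samples and 11.61, 11.65 and 11.83 in the WT samples. Nearest to S1pr1 were the potassium channel gene Kcna5, the decarboxylase gene Ddc and the glutathione transferase gene Mgst3, with differences of 0.059, 0.069 and 0.071 log2 units. Kcna5 read 7.63, 7.92 and 7.82 in the KO samples and 7.14, 7.27 and 6.94 in the WT samples. With 6 arrays in 2 groups, such likeness mostly restates a difference of similar size between the genotypes.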

How the data were processed

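RNA of the 6 samples was labelled with biotin and read on 1-colour Affymetrix arrays. The authors deposited log2 signals of 35556 probe sets; RMA and the Partek software, version 6.5, appear in the submitters' processing notes, and the values themselves show the log2 scale. Other settings are not stated there, and no detection calls were used; the number of arrays limits the precision. Genotypes were read off the sample titles. The platform annotation gave 21789 probe sets exactly 1 gene symbol, 1621 several and 12146 none; each gene was represented by its brightest probe set. KO minus WT was fitted with limma (version 3.58.1, R 4.3.3; lmFit and eBayes, no covariate, no filter, two-sided; tested on simulated data), with Benjamini-Hochberg adjustment over all probe sets. An exact permutation test of 3 against 3 cannot go below p = 0.10 and was not used. Intervals are 95%, with 6.23 degrees of freedom. Named genes were all receptors, the called genes of each list, up to 3 with the smallest p per list, and the 3 probe sets nearest in pattern to each called receptor; others in the text were chosen after their values were seen. Members and lists were chosen with earlier results of these data known. Alternatives were a replicate block, a filter on dim probe sets, single-gene probe sets only, 3 further normalizations, eBayes with trend and robust, array weights, averaging the probe sets of a gene, and each sample left out.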

Additional observations from a re-analysis of the deposited data

How the results depend on the processing

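Of 146 values of the single receptors under alternative settings, 126 kept their direction and side of the threshold, 5 lost a call (all S1pr1), 10 gained one (Ccr2 and Ccr7) and 5 changed sign without passing. The sign changes were those of Ccr6 (-0.050 to 0.017 in fits without 1 sample; 0.011 without WT sample 2), Cxcr3 (-0.16 to 0.033; 0.0025 without KO sample 2) and Gpr183 (-0.12 to 0.048). The count of receptors passing limma was 2. It was 4 with single-gene probe sets only and 4 with quantile normalization. With the filter on dim probe sets, cyclic loess normalization, eBayes with trend and robust, or array weights it was 3. It stayed at 2 with the replicate block, median centring or averaged probe sets, and was 1 to 3 in fits that left out 1 sample. The count of all probe sets passing, 1095, ranged from 565 to 857 without 1 sample, and that of related genes, 12, from 3 to 8. Fewer samples leave fewer degrees of freedom; for the other changes the cause was not tested. With the sample number as a replicate block, 544 probe sets, 2 receptors and 2 related genes (Plpp1 and Gfi1) passed; Rgs2 had an adjusted p of 0.0521 there. Deviations of same-numbered samples correlated at -0.12, 0.016 and 0.26, and those of different-numbered samples at -0.35 to 0.31. Deviations within a group of 3 sum to 0, so these correlations depend on each other and cannot decide whether the samples are paired. The labels state no pairing, so none was used in the main fit. Whether same-numbered samples share a batch was not tested. Quantile normalization moved the median change of all probe sets by -0.0058 log2 units, and the other 2 normalizations moved it by less. The low signal of Cxcr3, Ccr2, Ccr6, Ccr9 and Gpr183 limits what differences could be seen. Ccr2, Ccr6, Ccr9 and Gpr183 have no value under the filter on dim probe sets, which removed them.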

Other observations

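The genes next to the receptors in the gene table of assembly GRCm38.p6, up to 3 measured ones on each side, were read as a check of the surrounding loci. Of 57 such entries, 2 passed limma and 13 had an unadjusted p under 0.05, beside 4.43% and 13.4% of all genes. Neighbouring probe sets are not independent, and no test of these counts was run. The genomic position of each probe set was not checked. Those used for Mpc1 and Sft2d1 beside Ccr6, and for Smarce1 beside Ccr7, carry numbers far from those of the other neighbours. These probe sets may not read the listed loci, and that of Sft2d1 had an unadjusted limma p under 0.05. Both called genes neighbour Gpr183 on chromosome 14: Clybl, a mitochondrial lyase gene, read 10.01, 10.30 and 10.20 in the KO samples and 10.61, 10.67 and 10.63 in the WT samples (log2 change -0.47, adjusted p = 0.0397). Tm9sf2, which encodes a Golgi and endosome membrane protein, read 12.11, 12.19 and 12.16 in the KO samples and 12.51, 12.52 and 12.41 in the WT samples (log2 change -0.33, adjusted p = 0.034). Gpr183 itself did not pass. Around Cxcr5 on chromosome 9, none of 6 neighbours passed limma and 1, Bcl9l, had an unadjusted p under 0.05, with log2 differences of the 6 between -0.18 and 0.056. Around S1pr1 on chromosome 3, none of 6 passed and 1, the zinc transporter gene Slc30a7, had an unadjusted p under 0.05 (log2 difference 0.34, adjusted p = 0.131).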
